A study of Mus musculus with 8 samples.

Results

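The guanylate-binding proteins (GBPs) and the immunity-related GTPases (IRGs) are 2 families of interferon-induced GTPases, and 10 of their genes were followed here among the 10825 genes of the count table. The 5 GBP genes were Gbp2, Gbp3, Gbp4, Gbp5 and Gbp7, and the 5 IRG genes were Irgm1, Irgm2, Igtp, Iigp1 and Ifi47. They were chosen by name, and each was found by its Ensembl mouse gene ID. The RNA came from cells labelled as dendritic cells (DCs), sorted out of E0771 tumours (a mouse mammary carcinoma line) in wild-type mice. The PBS group (4 samples) received PBS and the DRQ group (4 samples) received DRQ, which the labels call a CD74 inhibitor. Treatment started at day 10, and the harvest was 3 weeks after injection of the tumour cells. No age is given, and nothing says whether a sample was 1 mouse or a pool, so p-values here reflect sample-to-sample spread alone, and that spread may be technical.

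Interferon gamma, made mainly by natural killer (NK) cells and T cells, binds its receptor, and the kinases JAK1 and JAK2 then carry the signal on to gamma-activated sequences (GAS) in promoters. The interferon-stimulated response element (ISRE) is bound by interferon regulatory factors. Both GTPase families are among the classical targets of this pathway in mouse cells. GBPs gather on vacuoles and bacteria inside the cell and promote membrane rupture and inflammasome activation. Effector IRGs load onto the vacuoles of parasites and disrupt them, and regulatory IRGs of the Irgm group keep the effectors inactive on the cell's own membranes.

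Promoters of such genes are where GAS and ISRE elements are looked for, so the stretch around the ISRE nearest the start of transcription is printed for the 7 genes whose window held one. The windows are from RefSeq on build GRCm38.p6, which differs from the authors' build GRCm39, and run from 250 bases before the start (position 0) to position 49. RefSeq windows were matched by symbol for 8 of the 10 genes. Gbp4 and Iigp1 were not analysed for sequence. Capitals mark matches to the ISRE core GAAANNGAA on either strand or to the GAS letters TTCNNNGAA, which read the same on both strands, and each sequence runs 5′ to 3′ on the gene's strand.
Gbp2 (chr3:142620587-142620631, + strand): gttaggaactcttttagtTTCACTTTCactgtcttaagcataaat
Gbp3 (chr3:142559982-142560032, + strand): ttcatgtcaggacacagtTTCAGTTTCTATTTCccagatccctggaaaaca
Gbp5 (chr3:142496752-142496796, + strand): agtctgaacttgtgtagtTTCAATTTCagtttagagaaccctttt
Gbp7 (chr3:142530266-142530310, + strand): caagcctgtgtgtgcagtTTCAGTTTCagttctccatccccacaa
Irgm1 (chr11:48871418-48871468, - strand): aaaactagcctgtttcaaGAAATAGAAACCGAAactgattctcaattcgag
Irgm2 (chr11:58214884-58214939, + strand): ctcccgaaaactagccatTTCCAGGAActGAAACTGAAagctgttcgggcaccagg
Igtp (chr11:58199493-58199548, + strand): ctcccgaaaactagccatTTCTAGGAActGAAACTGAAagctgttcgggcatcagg

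All 4 GBP windows carried the ISRE on the strand opposite to the gene, and all 3 Irgm-group windows carried it on the gene's own strand. The ISRE began at position -58 in Gbp2, -52 in Gbp7 and -164 in Gbp5. Gbp3 held 2 overlapping copies at -44 and -38, and Irgm1 held 2 overlapping copies at -30 and -24. In Irgm2 and Igtp a GAS stood just upstream of the ISRE, and these stretches matched at 54 of 56 bases. Neither element was found in the window of Ifi47 or at the second annotated start of Gbp3, which says only that these letters are not in those windows.

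The Gbp5 window also held a GAS from -52 to -44 and another from -245 to -237, and that of Gbp7 held GAS matches at -106 and -87. Gbp5 is the gene whose groups separated in level, so its whole window is shown. On chromosome 3 (chr3:142496684-142496983, + strand, GRCm38.p6, capitals as above) the ISRE lies between both GAS matches.
Gbp5: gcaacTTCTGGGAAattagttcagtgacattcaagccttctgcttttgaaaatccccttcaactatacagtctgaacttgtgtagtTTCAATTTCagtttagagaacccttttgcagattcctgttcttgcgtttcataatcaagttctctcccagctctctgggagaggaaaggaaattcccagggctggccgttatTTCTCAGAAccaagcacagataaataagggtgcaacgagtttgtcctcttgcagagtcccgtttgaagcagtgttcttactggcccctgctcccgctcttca

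Of all 32851 RefSeq promoter windows of this length, 8.30% held a GAS, 8.56% held an ISRE and 1.07% held both. A match is a description of letters and not a measured binding site.

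**Figure D1:**
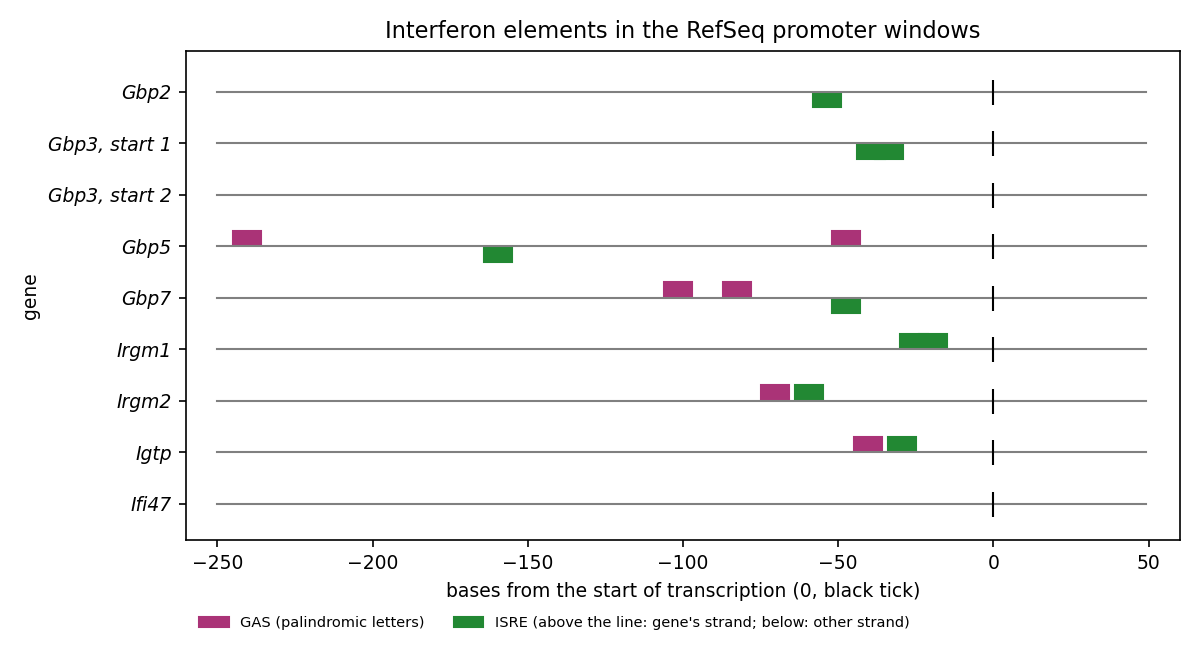
Positions of GAS matches (purple) and ISRE matches (green) in 9 RefSeq promoter windows of 8 genes; the horizontal axis is the distance in bases from the start of transcription at 0, and ISRE boxes lie above the line on the gene's strand and below it on the other. The 4 GBP genes with an ISRE have it below the line and the 3 Irgm-group genes have it above, and Ifi47 has neither element.

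Total counts ran from 361792 to 543892 per library. Levels are counts per 1000000 (CPM), each library's total being scaled by its TMM factor. On that scale 3 counts, the limit that a count of 0 allows, came to 5.43 CPM in the library with the lowest floor and 8.59 CPM in that with the highest. Tags were read at the 3′ end, so levels were not divided by transcript length. The 6 listed conventional DC markers summed to 4711 to 7560 CPM in PBS and 8473 to 10778 CPM in DRQ, without overlap. Most of this sum came from H2-Ab1, H2-Eb1 and Cd74, the gene of the DRQ target. Taken singly, Cd74, Flt3, Itgax and Zbtb46 overlapped between the groups, and the Itgax log2 fold change was -0.16 ± 0.19. The 6 type 2 DC markers (among them Il1r2) summed to 192 to 250 and 340 to 608 CPM, also without overlap. Of these, Sirpa (-0.07 ± 0.44) and Irf4 (0.11 ± 0.44) overlapped singly. The 5 mature DC markers summed to 218 to 534 and 605 to 1076 CPM, again without overlap. Taken singly, Fscn1, Cacnb3, Ccl22 and Il4i1 overlapped and Ccr7 did not, and all 5 log2 fold changes were above 0 (0.70 to 1.45). NK and cytotoxic markers (8 genes) summed to 11075 to 15732 CPM in PBS and 9395 to 14547 CPM in DRQ, and T cell markers (9 genes) to 1744 to 2545 and 2248 to 2381 CPM. Macrophage markers summed to 155 to 486 and 126 to 857 CPM, monocyte markers to 210 to 438 and 308 to 425 CPM and epithelial markers to 109 to 231 and 23.2 to 135 CPM, while neutrophil and B cell markers stayed under 128 CPM. Of the conventional DC markers only Zbtb46 had a count of 0 in some library, and no NK or T cell marker did. Of the type 1 DC markers, Batf3, Irf8 and Cadm1 were counted. They summed to 1187 to 2046 CPM in PBS and 1652 to 2337 CPM in DRQ, with overlap. Xcr1 and Clec9a, also of that list, were not analysed here. The part these cells play in the levels below was not tested, and in bulk RNA a change in the number of cells of a type cannot be told apart from a change in RNA per cell.

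Every one of the 10 genes was counted, over a wide range of abundance. Igtp, a regulatory IRG of the endoplasmic reticulum also called Irgm3, was the most abundant at a mean of 153 CPM over the 8 libraries, rank 1073 of the 10825 genes. It was the highest of the 10 in all 8 libraries. Gbp3 (73.7 CPM) and Ifi47 (73.6 CPM) came next, then Irgm1 (53.3 CPM), Gbp2 (53.1 CPM) and Gbp7 (52.1 CPM), and then Gbp5 (38.1 CPM). Gbp3 and Ifi47 differed by less than the spread (SD) of either over the 8 libraries, as did each neighbouring pair from Irgm1 down to Gbp5. Gbp4 (16.5 CPM), Irgm2 (16.1 CPM) and Iigp1 (6.48 CPM) were the lowest, and these 3 fell under the filter on low counts and have no test.

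**Figure D2:**
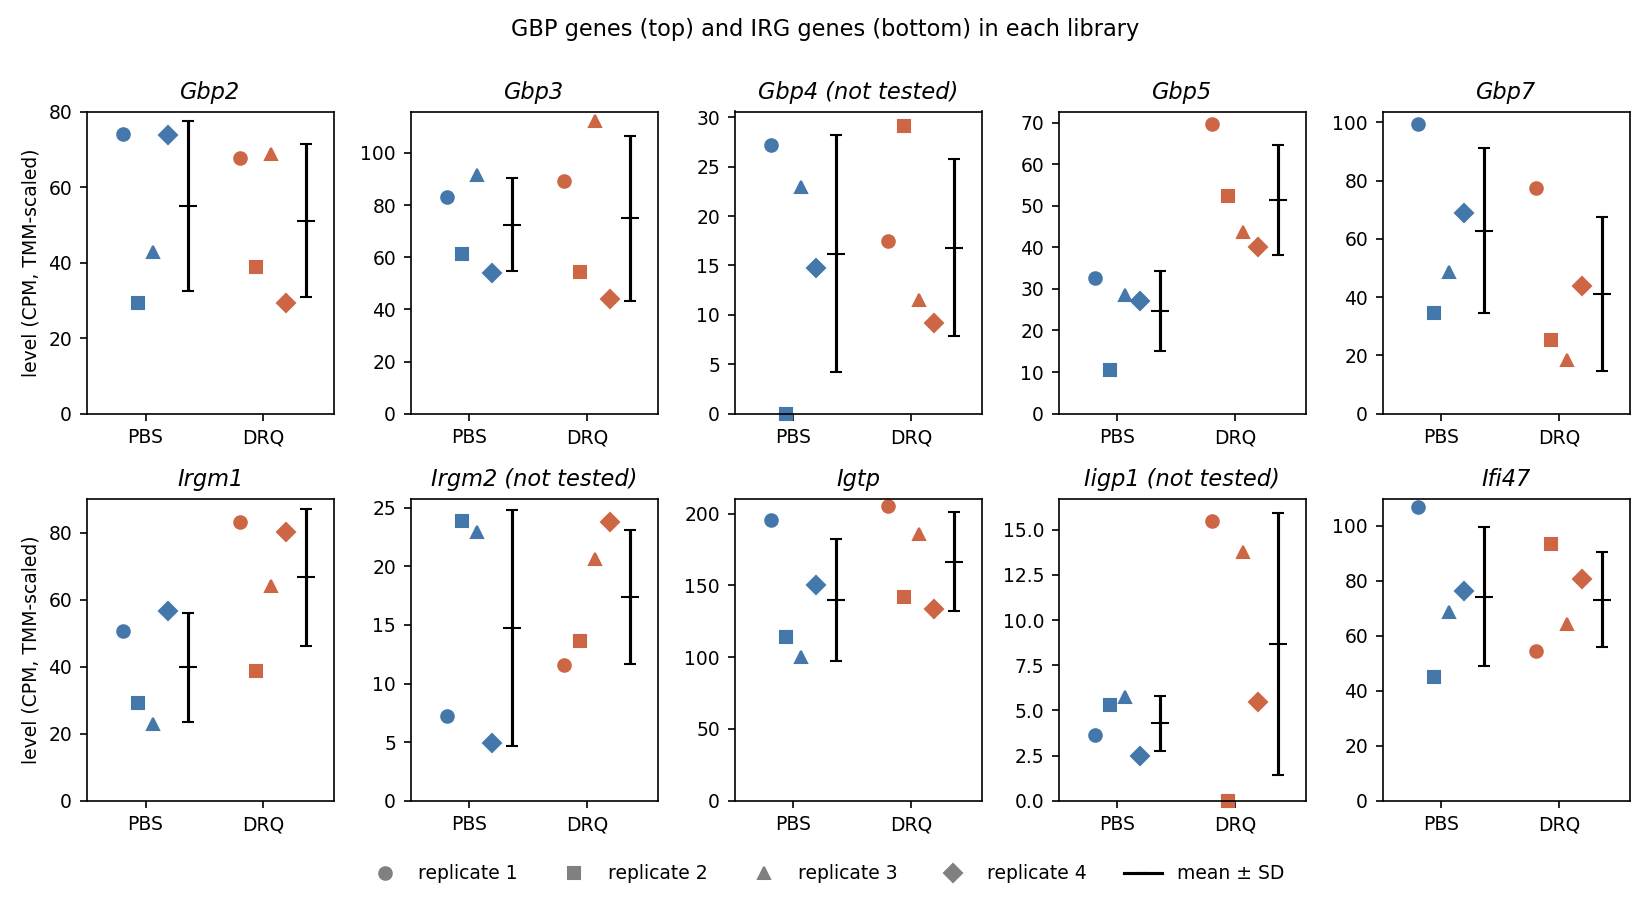
Level of each of the 10 genes in each library, in TMM-scaled CPM on a linear axis that starts at 0; blue points are PBS and orange points DRQ, marker shapes give the replicate number, and black bars are the mean ± SD of 4 libraries. Gbp5 is the one tested gene without overlap, its PBS points running from 10.6 to 32.6 CPM and its DRQ points from 40.2 to 69.7 CPM; Gbp4, Irgm2 and Iigp1 were not tested.

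Comparing DRQ with PBS asks how treatment with the CD74 inhibitor relates to these transcripts. None of the 7 tested members was called by edgeR over all genes (0 of 7, against 0.0325% of the 6156 genes tested). DESeq2 called 0 of the 6 to which it gave an adjusted p (against 0.440% of 3410 genes), and Gbp5 got none. The limma-voom fit called 0 of 7, against 2 of all 6156 genes. At an unadjusted p under 0.05 edgeR gave 2 of 7 members higher, Gbp5 and Irgm1, where 3.98% of all tested genes were higher, and 0 of 7 lower, where 3.28% of all were. Estimates were above 0 for 4 of 7, against 48.4% of all tested genes. Their median log2 fold change was 0.03, beside -0.01 over all tested genes. Groups were fully apart with DRQ higher for 1 of 7, Gbp5, against 2.13% of all genes, and with DRQ lower for 0 of 7, against 2.18%.

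Gbp5 (ENSMUSG00000105504), a GBP linked to inflammasome activation in mouse macrophages, stood at 32.6, 10.6, 28.6 and 27.1 CPM in PBS replicates 1 to 4. In DRQ replicates 1 to 4 it stood at 69.7, 52.4, 43.6 and 40.2 CPM. Every DRQ library exceeded every PBS library, and PBS replicate 2, with 4 counts, was the lowest of the 8. The PBS mean was 24.7 ± 9.68 CPM and the DRQ mean 51.5 ± 13.2 CPM (SD, n = 4). The log2 fold change was 1.03 ± 0.38 (SE; 95% interval 0.25 to 1.81), with a Benjamini-Hochberg adjusted p of 0.494 by edgeR, so it did not pass over all genes.

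Gbp7 (ENSMUSG00000040253), which in mouse macrophages has been tied to the NADPH oxidase, lies next to Gbp5 in the same gene cluster, and its estimate had the opposite sign. It stood at 99.5, 34.5, 48.7 and 68.9 CPM in PBS and at 77.5, 25.2, 18.4 and 43.9 CPM in DRQ, replicates 1 to 4 in each. The groups overlapped, with PBS replicate 1 highest and DRQ replicate 3 lowest. The log2 fold change was -0.62 ± 0.39 (95% interval -1.43 to 0.19; edgeR, Benjamini-Hochberg adjusted p = 0.783). In PBS Gbp7 exceeded Gbp5 in every library, with a mean log2 ratio of Gbp5 to Gbp7 of -1.28 ± 0.39 (2 CPM added to each), and in DRQ the mean was 0.47 ± 0.70 (SD, n = 4). This ratio did not overlap between the groups (-1.55 to -0.73 in PBS, -0.15 to 1.16 in DRQ). Ratios of all 21 pairs of tested members were compared by exact 2-sided permutation of the libraries. Gbp5 to Gbp7, Gbp5 to Ifi47 and Gbp7 to Irgm1 reached the smallest p that 4 against 4 allows, 0.0286 by this exact test. Adjusted over the 21 pairs this was 0.200, so none passed. With so few libraries a pair could pass only if most pairs reached that smallest p, so this outcome decides nothing. The members were chosen with earlier results of these data known, so these p-values are a description only.

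The other GBPs did not separate. Gbp2 (ENSMUSG00000028270), which coats the Toxoplasma vacuole in mouse cells, stood at 74.2, 29.2, 42.9 and 73.8 CPM in PBS and at 67.8, 38.8, 68.8 and 29.2 CPM in DRQ. Both groups held low and high libraries across nearly the same range, and the log2 fold change was -0.14 ± 0.35 (95% interval -0.86 to 0.59; edgeR, adjusted p = 0.966). Gbp3 (ENSMUSG00000028268) stood at 83.2, 61.0, 91.6 and 54.1 CPM in PBS and at 89.1, 54.4, 112 and 43.9 CPM in DRQ. The DRQ libraries included both its highest and its lowest value, and the log2 fold change was 0.03 ± 0.30 (95% interval -0.59 to 0.66; edgeR, adjusted p = 0.991). Without DRQ replicate 3 the Gbp3 estimate was -0.22. Gbp4 (ENSMUSG00000079363) had PBS counts of 15, 0, 8 and 6 and DRQ counts of 9, 15, 5 and 5, in order of replicate. The groups overlapped, and the 0 in PBS replicate 2 allows a level of up to 7.96 CPM (3 counts, counting error only).

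Irgm1 (ENSMUSG00000046879), a regulatory IRG also needed for autophagy and mitochondrial quality in mouse macrophages, had the largest estimate of the IRG genes tested. It stood at 50.7, 29.2, 22.9 and 56.6 CPM in PBS and at 83.3, 38.8, 64.2 and 80.4 CPM in DRQ. DRQ replicates 1, 3 and 4 exceeded every PBS library, and DRQ replicate 2 lay within the PBS range. Means were 39.8 ± 16.3 and 66.7 ± 20.4 CPM (SD, n = 4). The log2 fold change was 0.72 ± 0.34 (95% interval 0.01 to 1.42; edgeR, adjusted p = 0.678), and 0.33 without PBS libraries 2 and 3.

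Igtp (ENSMUSG00000078853) stood at 195, 114, 100.2 and 150.02 CPM in PBS and at 205, 142, 186 and 133 CPM in DRQ. PBS replicate 1 and DRQ replicate 1 were the highest of their groups and close together. The log2 fold change was 0.23 ± 0.22 (95% interval -0.23 to 0.68; edgeR, adjusted p = 0.887). Ifi47 (ENSMUSG00000078920), an effector IRG also called Irgd, stood at 107, 45.1, 68.7 and 76.2 CPM in PBS and at 54.2, 93.2, 64.2 and 80.4 CPM in DRQ. Here PBS held both the highest and the lowest library, and the log2 fold change was -0.04 ± 0.29 (95% interval -0.63 to 0.55; edgeR, adjusted p = 0.991).

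The scarce IRG genes can only be given as counts. Irgm2 (ENSMUSG00000069874), a regulatory IRG of the Golgi, had 4, 9, 8 and 2 counts in PBS and 6, 7, 9 and 13 in DRQ. Its highest level was in PBS replicate 2, at 23.9 CPM, although most GBPs were at their PBS low there. Iigp1 (ENSMUSG00000054072), the effector IRG also called Irga6, had 2, 2, 2 and 1 counts in PBS and 8, 0, 6 and 3 in DRQ. DRQ replicates 1 and 3 had the most, DRQ replicate 2 had none, which allows up to 5.82 CPM (3 counts), and the groups overlapped.

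**Figure D3:**
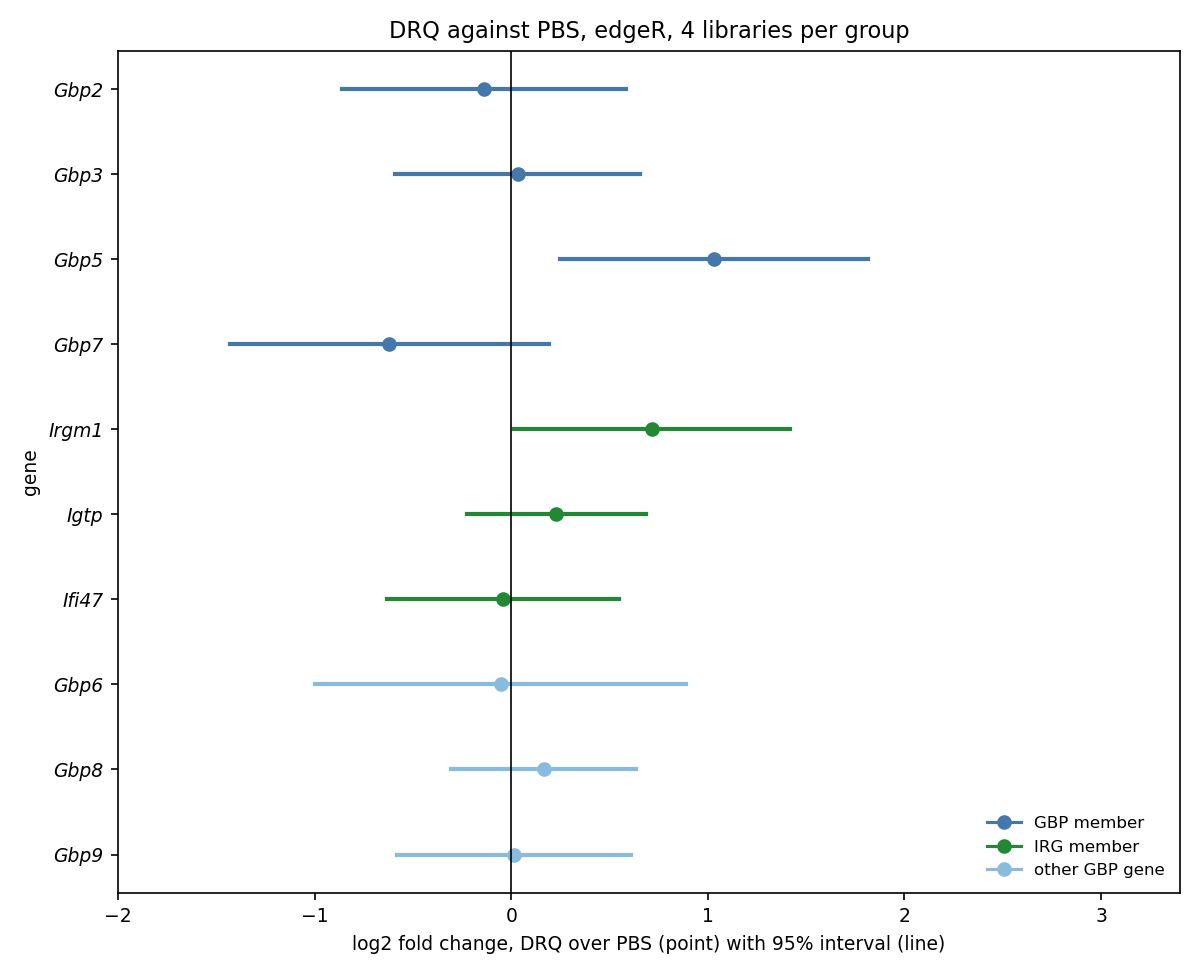
Log2 fold change of DRQ over PBS from edgeR (points) with 95% intervals (lines) for the 7 tested members and 3 other GBP genes, 4 libraries per group. Intervals of Gbp5 (0.25 to 1.81) and Irgm1 (0.01 to 1.42) lie above 0, and none of the genes drawn passed after adjustment over all genes.

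Summed by family, the GBP genes showed no shift and the IRG genes a difference smaller than their spread in PBS. The 5 GBP genes summed to 317, 135, 235 and 239 CPM in the PBS libraries, by replicate number, and to 321, 199.96, 255 and 166 CPM in the DRQ libraries. Their means were 231 ± 74.3 and 236 ± 67.8 CPM (SD, n = 4), and the ranges overlapped almost fully. The 5 IRG genes summed to 364, 218, 220 and 290 CPM in PBS and to 370, 287, 349 and 323 CPM in DRQ. Their means were 273 ± 69.1 and 332 ± 35.5 CPM (SD, n = 4), with PBS replicates 2 and 3 under the whole DRQ range and PBS replicate 1 near the DRQ maximum. Igtp alone made up 28.6% of the mean level summed over all 10 genes.

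The GBP sum was 0.84 ± 0.18 times the IRG sum in PBS (0.62 to 1.06) and 0.70 ± 0.15 times in DRQ (0.51 to 0.87; SD, n = 4), with overlap. Over the tested members the median log2 fold change was -0.05 for 4 GBP genes (-0.26 to 0.14 with 1 library left out) and 0.23 for 3 IRG genes (0.10 to 0.45). Each family held 1 member with an unadjusted p under 0.05. No p is given for these sums, because the members were chosen with earlier results of these data known.

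**Figure D4:**
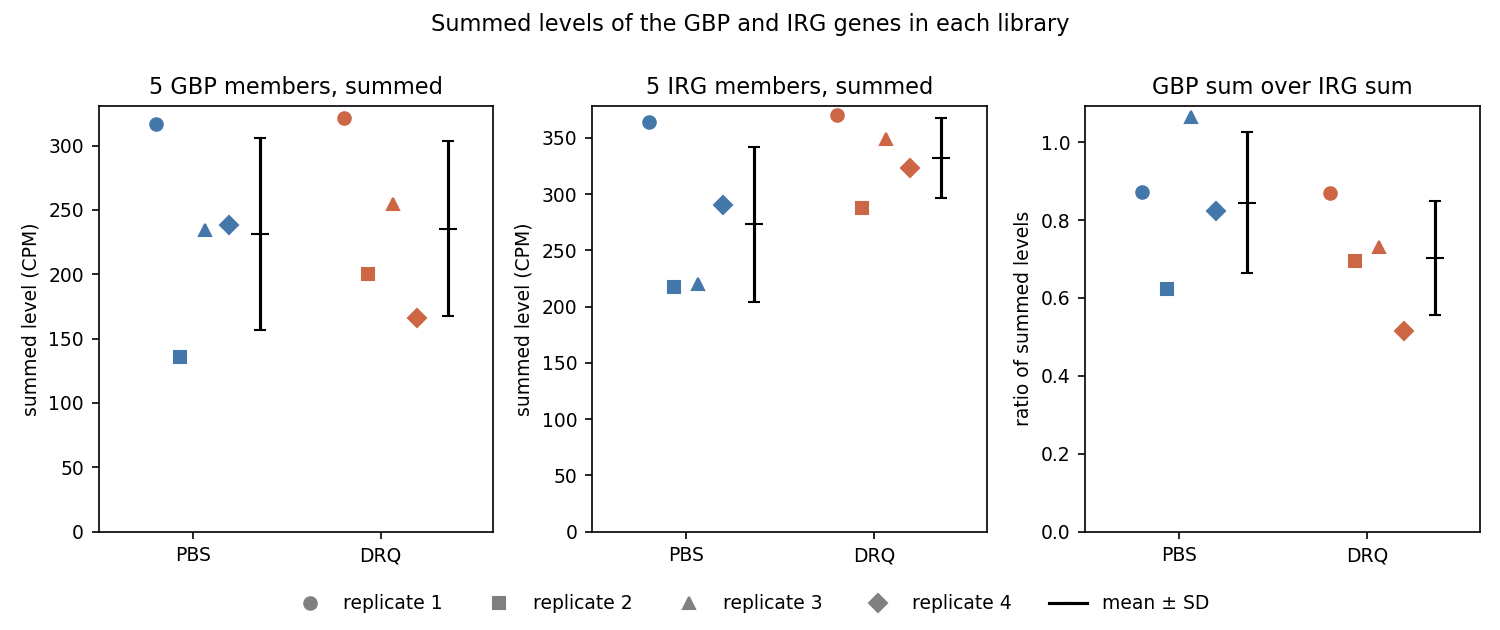
Summed level of the 5 GBP genes, summed level of the 5 IRG genes (both TMM-scaled CPM) and the ratio of both sums in each library; colours, shapes and bars are as in the plot of single genes, and all axes start at 0. GBP sums overlap almost fully between PBS (135 to 317 CPM) and DRQ (166 to 321 CPM), while IRG sums run from 218 to 364 CPM in PBS and from 287 to 370 CPM in DRQ.

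Among the PBS libraries, replicate 1 tended to be high and replicate 2 low. Replicate 1 was the highest PBS library for 6 of the 10 genes (Gbp2, Gbp4, Gbp5, Gbp7, Igtp and Ifi47), and replicate 2 the lowest for 5 (Gbp2, Gbp4, Gbp5, Gbp7 and Ifi47). Irgm2 had replicate 2 highest, though only at 9 counts against 8 in replicate 3. Over all 8 libraries DRQ replicate 1 was the highest for 4 genes (Gbp5, Irgm1, Igtp and Iigp1) and PBS replicate 1 for 3 (Gbp2, Gbp7 and Ifi47). The sum over all 10 genes was lowest in PBS replicate 2 (353 CPM) and highest in PBS replicate 1 (680 CPM) and DRQ replicate 1 (691 CPM).

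The spread between libraries was mostly larger than counting error alone would give. For Gbp5 the coefficient of variation in PBS was 39.2%, where its mean count alone would give 30.5%. For Igtp it was 30.4% against 12.7%, and for Gbp7 in DRQ 64.2% against 21.7%. Irgm2 in DRQ, at 33.0% against 33.8%, varied no more than counting allows.

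**Figure D5:**
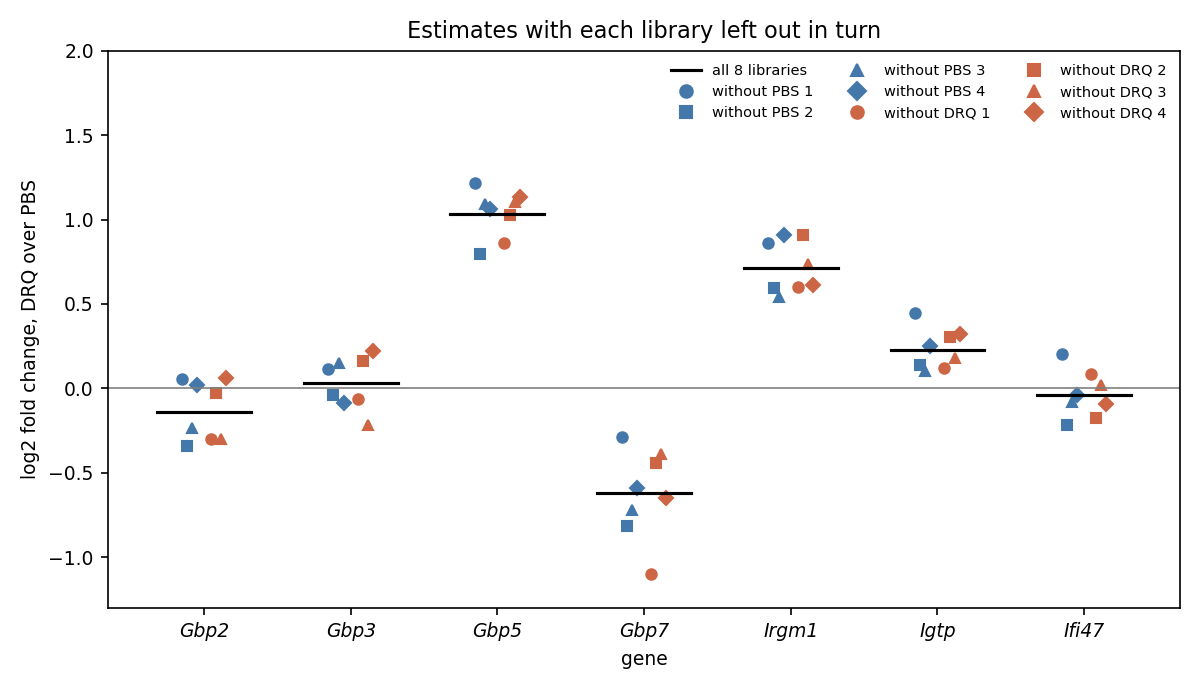
Log2 fold change of DRQ over PBS for the 7 tested members when each library is left out in turn; coloured markers name the library left out and black lines give the estimate from all 8 libraries. Gbp5 (0.79 to 1.21) and Irgm1 (0.54 to 0.91) stay above 0 and Gbp7 (-1.10 to -0.29) below 0 in all 8 fits, while Gbp2, Gbp3 and Ifi47 fall on both sides.

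Removing 1 library at a time moved the estimates of Gbp7 and Igtp by over 1.5 times without a change of sign. Those of Gbp2, Gbp3 and Ifi47 changed sign in some of the fits. Gbp7 was -0.29 without PBS replicate 1 and -1.10 without DRQ replicate 1, and Igtp was 0.10 without PBS replicate 3 and 0.45 without PBS replicate 1. None of the 7 members was called in any of these 8 fits by edgeR.

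By the root mean square difference between standardised log2 profiles over the 8 libraries, 5 genes lay closest to the mean profile of the tested members among 3430 genes with at least 50 CPM. They were Mob1a (0.31), Myo9b (0.38), Rapgef6 (0.40), Higd1a (0.43) and Tle3 (0.44). Members themselves ranged from 0.47 for Igtp to 1.08 for Gbp3. The 5 genes were picked for their closeness, so these distances are a description only.

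The remaining GBP genes on the list, Gbp6, Gbp8 and Gbp9, belong to a separate cluster together with Gbp4. Gbp8 had group means of 99.4 ± 18.7 CPM with PBS and 112 ± 14.0 CPM with DRQ (SD, n = 4), and its log2 fold change was 0.17 ± 0.23. Gbp9 had means of 70.4 ± 22.8 and 71.0 ± 18.4 CPM (0.01 ± 0.29) and Gbp6 20.9 ± 6.90 and 20.3 ± 4.24 CPM (-0.05 ± 0.46). None of the 3 passed by edgeR, 0 had an unadjusted p under 0.05 and DESeq2 called 0, though it gave Gbp6 no adjusted p. Gbp6 is uncertain, because 88.9% of the 50-base stretches in its transcripts' last 500 bases also occur in Gbp10 and other GBP genes, so counting could split or drop its reads. That share was 14.2% for Gbp4, 4.54% for Ifi47 (with Olfr56) and at most 3.55% for the other 8 members. Gbp2b, Gbp10, Gbp11, Tgtp1 and Tgtp2 were not analysed here, and Irgq, at 0 to 7 counts per library, was not tested. Irgb10 (Gm12250), listed with the defence partners below, had 1 to 7 counts in PBS and 3 to 16 in DRQ, and was not tested.

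Upstream in the pathway, Ifng itself was abundant, with overlapping groups that averaged 891 ± 153 CPM under PBS and 1001 ± 146 CPM under DRQ. Its log2 fold change was 0.17 ± 0.14 (4 libraries per group). The receptor chain gene Ifngr1 stood at 0.05 ± 0.16, and Ifngr2, at 0 to 10 counts per library, was not tested. Jak1 stood at -0.20 ± 0.16 and Jak2 at 0.56 ± 0.26.

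Irf1, a transcription factor induced early by interferon gamma, stood at 0.32 ± 0.17, Irf9 at 0.17 ± 0.22, the feedback inhibitor Socs3 at 0.24 ± 0.18 and the phosphatase gene Ptpn2 at -0.70 ± 0.44. Of the 9 tested signalling genes 7 had estimates above 0, against 48.4% of all tested genes, with a median of 0.17. By edgeR 0 passed over all genes and 2 were higher at an unadjusted p under 0.05, against 3.98% of all tested genes. DESeq2 called 1, against 0.440% of the genes to which it gave an adjusted p.

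Of 20 other interferon gamma targets on the list 15 were analysed here, without Cxcl9, Ido1, Batf2, Nos2 and Ubd. These gave 11 of 15 estimates above 0, against 48.4% of all tested genes, with a median of 0.21 against -0.01 over all genes. By edgeR 0 of 15 passed. DESeq2 called 0, against 0.440% of all genes to which it gave an adjusted p, and gave none to at least Cd274. At an unadjusted p under 0.05 (edgeR) Tapbp alone was higher and Serpina3g alone lower, against 3.98% and 3.28% of all tested genes. Tapbp, the chaperone tapasin of MHC class I loading, stood at 0.33 ± 0.15. It ran at 376 to 499 CPM with PBS and 509 to 674 CPM with DRQ, without overlap (DRQ higher without overlap: 2.13% of all tested genes). The protease inhibitor gene Serpina3g stood at -0.53 ± 0.16, its PBS mean being 510.3 ± 118 CPM and its DRQ mean 353 ± 13.4 CPM. Cd274, which encodes PD-L1, stood at 0.64 ± 0.36, the MHC class II regulator Ciita at 0.47 ± 0.23 and Irf8 at 0.24 ± 0.15.

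Genes whose products work with GBPs and IRGs in cell-autonomous defence were split. Of 12 estimates 7 were above 0, against 48.4% of all tested genes, and their median was 0.10. By edgeR 0 of 12 passed. DESeq2 called 0, against 0.440% of all genes to which it gave an adjusted p, and gave none to at least Atg7 and Gabarapl2. Before adjustment (edgeR, p under 0.05) 2 were higher and 1 was lower, against 3.98% and 3.28% of all tested genes. Ube2l6, the conjugating enzyme for ISG15, stood at 1.07 ± 0.40 and the autophagy gene Atg7 at 0.82 ± 0.36. Atg7 ran from 14.8 to 37.2 CPM with PBS and from 40.7 to 65.8 CPM with DRQ. These did not overlap, as held with DRQ higher for 2.13% of all tested genes. Rabgef1 stood at -0.92 ± 0.44, the cytosolic DNA sensor gene Aim2 at 0.34 ± 0.23 and Gabarapl2, of the autophagy conjugation machinery, at -0.37 ± 0.32.

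Type I interferon response genes, set beside the GTPases for comparison, had 15 of 19 estimates above 0, against 48.4% of all tested genes. Their median was 0.30. By edgeR 0 of 19 passed. DESeq2 called 0, against 0.440% of all genes to which it gave an adjusted p, and gave none to at least Ifit1. Before adjustment (edgeR, p under 0.05) 4 were higher and 1 was lower, against 3.98% and 3.28% of all tested genes. Estimates were 0.49 ± 0.16 for Ifi27l2a, 1.13 ± 0.37 for Trim30a, 0.70 ± 0.25 for Rtp4, 1.30 ± 0.51 for the antiviral enzyme gene Rsad2 and -0.95 ± 0.40 for Ifit1. Groups were fully apart with DRQ higher for 3 of 19, against 2.13% of all genes, and with DRQ lower for 1, against 2.18%. Trim30a ran from 18.6 to 34.3 CPM with PBS and from 42.7 to 91.8 CPM with DRQ, and Rtp4 from 39.8 to 93.5 and from 107 to 124 CPM. Usp18, which removes ISG15 from proteins and is named after its values were seen, ran from 77.0 to 157 CPM with PBS and from 164 to 198 CPM with DRQ. Ifit1 was the lower one, at 29.2 to 45.8 CPM with PBS and 9.71 to 25.6 CPM with DRQ. The medians of these lists and of the 7 GTPase genes were not tested against each other. The conventional and mature DC marker sums, given above, were higher in the same DRQ libraries, and their part in any of these estimates was not tested.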

How the data were processed

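The authors deposited raw counts per Ensembl gene, whole numbers with 1 column per sample, from a bulk form of MARS-seq (3′-end reads with molecular identifiers), per the labels' protocols. STAR 2.7.3a, HTSeq, cutadapt, bcl2fastq 2.20.0.422, DESeq2 1.26.0, DESeq and build GRCm39 are listed, without a role, in the submitters' processing notes. Whether identifiers were collapsed, and strand use, are not given in the sources used here; floors and intervals therefore cover only counting error. The deposited normalized signal is the count over a size factor per library (all 86600 values within 0.011).

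Symbols came from a GENCODE table of build GRCm38 (10788 of 10825 IDs matched), so no gene coordinates are given; older symbols came from a RefSeq table of GRCm38.p6. The test was edgeR 4.0.16 under R 4.3.3 (TMM scaling, filterByExpr keeping 6156 genes with 94.9% of counts, 2-sided quasi-likelihood test with robust dispersion, Benjamini-Hochberg adjustment over all tested genes, threshold 0.05). It was also run on counts simulated from means and dispersions fitted to these libraries, so that run cannot show that the model suits these data. Alternatives used DESeq2 1.42.0, limma 3.58.1, other scaling, filters, a replicate block, the normalized values plus 1, and left-out libraries. All 28 pairs of libraries differed by more than sampling noise, with chi-square over degrees of freedom from 2.73 to 4.66.

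Members, lists, tests and alternatives were chosen with earlier results of these data known. Named were all members, all tested genes of the other GBP, IRG and signalling lists, up to 5 genes of smallest p in other lists, and the 5 most like the members. A gene that the rule names is not reported here. Protein motifs, also planned, were not analysed here. Figures were drawn with matplotlib 3.10.9.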

Additional observations from a re-analysis of the deposited data

Results flagged for a closer look

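In 7 of 92 groups of 4 libraries checked, 1 library stood far from the other 3, the gap being most of the group's range (Dixon's 95% criterion); chance flags about 1 in 20 groups. None was among the 10 GTPase genes. Gbp6 in PBS replicate 2 was at 10.6 CPM, where the other PBS libraries held 22.9 to 25.3 CPM. Tapbp in DRQ replicate 2 was at 674 CPM against 509 to 536 CPM, Atg7 in PBS replicate 4 at 14.8 CPM against 34.3 to 37.2 CPM, and Aim2 in PBS replicate 4 at 93.5 CPM against 130.0 to 136 CPM. Trim30a in DRQ replicate 3 was at 91.8 CPM against 42.7 to 47.5 CPM, Rsad2 in the same library at 61.9 CPM against 25.2 to 27.2 CPM, and Rtp4 in DRQ replicate 2 at 107 CPM against 122 to 124 CPM.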

How the results depend on the processing

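No member was called in any of 17 alternative fits, though DESeq2 gave Gbp5 no adjusted p. Gbp5 (0.78 to 1.21), Irgm1 (0.33 to 0.91) and Gbp7 (-1.10 to -0.29) kept their sign in all 17, and the GBP median (-0.26 to 0.14) stayed below the IRG median (-0.058 to 0.45; difference -0.44 to -0.15), though each median changed sign in at least 1 fit. Signs turned for Gbp3 with limma-voom (-0.062) and the normalized values (-0.0083), where Ifi47 (0.019), Gbp6 (0.013) and Higd1a (0.086) turned too. They also turned for Higd1a with the replicate block (0.025) and, without PBS libraries 2 and 3, for Igtp (-0.058), Mob1a (-0.0092) and Rapgef6 (-0.035). Leaving out 1 library gave -0.34 to 0.060 for Gbp2, -0.22 to 0.22 for Gbp3, -0.22 to 0.21 for Ifi47, -0.26 to 0.066 for Gbp6, -0.16 to 0.25 for Gbp9, -0.26 to 0.21 for Higd1a and -0.11 to 0.12 for Ifngr1. Without a change of sign, estimates ran from 0.062 to 0.26 for Ifng, 0.044 to 0.35 for Irf9, 0.0998 to 0.35 for Irf8, -0.32 to -0.11 for Jak1 and 0.058 to 0.25 for Gbp8. The cause was not tested. Other GBP genes above 0 numbered 1 to 3 over these fits. With DESeq2 1 signalling gene was called. Genes called over the whole table numbered 2 (Il1b and Il1r2), 7 with library totals only, 8 with no filter, 15 with DESeq2, 6 with the replicate block, 1 with the normalized values, 0 without PBS libraries 2 and 3, and 0 to 15 with 1 library left out (none if DRQ replicate 3 was dropped, 6 if PBS replicate 3 was, 15 if PBS replicate 4 was and 7 if DRQ replicate 4 was). The labels state no pairing of same-numbered libraries. Deviations of same-numbered libraries correlated at -0.01 to 0.08, and those of other PBS and DRQ pairs at -0.08 to 0.06. The highest value was for replicate 1 of both groups, and not every library correlated best with its own number. So few pairs can neither show nor exclude a pairing. The block is therefore an alternative only, and under it 0 members were called. Without the filter the estimates were 0.04 ± 0.61 for Gbp4, 0.30 ± 0.58 for Irgm2 and 1.00 ± 1.01 for Iigp1. At these depths the 95% intervals of Gbp2, Gbp3, Igtp and Ifi47 exclude a 2-fold change, and those of Gbp5, Gbp7 and Irgm1 do not.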
